A study of Mus musculus with 6 samples.

Results

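The genes described here are the subunits of the transcription factor NF-kappaB and the inhibitors that NF-kappaB itself induces, 10 genes in all: Nfkb1, Nfkb2, Rel, Rela, Relb, Nfkbia, Nfkbie, Nfkbiz, Bcl3 and Tnfaip3. They were chosen by name, and every probe whose platform symbol is one of these names was read. The platform annotation used here gave 11 of the 45281 probes to 9 of the 10 genes and none to Nfkb1, which is therefore not analysed here. All 9 genes passed the detection filter and are among the 12492 genes and unnamed probes that were tested, called features below. RNA came from splenic CD11b+Gr-1high cells of mice on an H-2b background, a sorted fraction rich in neutrophils, and was hybridized to Illumina bead arrays, 2 arrays per group. The groups were wild-type mice with no tumor, IRF8 KO mice with no tumor, in which the gene of the interferon regulatory factor IRF8 is knocked out, and wild-type mice bearing a tumor grown from AT-3, a mouse mammary carcinoma cell line. Below, wild-type, KO and AT-3 cells are the sorted splenic cells of these groups, so AT-3 cells are not the tumor line. The labels do not say how many animals stand behind an array, nor the animals' age. The p-values therefore measure only the spread between these arrays.

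NF-kappaB works as dimers of Rel family proteins. RelA (from Rela) and c-Rel (from Rel) pair mainly with the processed product of Nfkb1 in the fast, canonical pathway, and RelB (from Relb) pairs mainly with the processed product of Nfkb2 in the slower, non-canonical pathway. IkappaB proteins such as those from Nfkbia and Nfkbie hold the dimers in the cytoplasm until IkappaB kinase marks them for destruction. The freed dimers then switch on inflammatory and survival genes in myeloid cells and, with them, the genes of their own brakes, so that Nfkbia and Tnfaip3 transcripts are known as quick readouts of the pathway.

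The start regions of 5 members are printed because the levels of these genes are described below and 4 of them hold a motif like the one NF-kappaB binds. The RefSeq-based table (build GRCm38.p6) held 10 windows for 7 of the 10 members, each from 250 bases before to 50 bases after a start site, and none for Nfkb1, Relb or Nfkbiz. Capitals mark matches, on either strand, to a kappaB-like motif written GGNNTTNCC, which has a longer form with a further G in front. The longer form was in 7 of the 10 windows, which belong to 5 of the 7 members (Nfkb2, Rel, Nfkbia, Bcl3 and Tnfaip3). Start sites 2 and 3 of Nfkb2 have overlapping windows that share the same match, so these windows are not independent. Counted by window, 4.79% of all 32851 in the table held the longer form and 5244 held the shorter. A match is a description of the letters only, and the arrays do not measure binding. The Nfkbia window lies at chr12:55492598-55492897 on the minus strand, the Tnfaip3 window at chr10:19015361-19015660 on the minus strand, and the Nfkb2 window at chr19:46304487-46304786 on the plus strand. That of Bcl3 lies at chr7:19822706-19823005 on the minus strand, and that of Nfkbie, which holds neither form, at chr17:45555450-45555749 on the plus strand. A second window of Tnfaip3 and the window of Rela held neither form, and the other windows of Nfkb2 and the window of Rel held the longer one.
Nfkbia: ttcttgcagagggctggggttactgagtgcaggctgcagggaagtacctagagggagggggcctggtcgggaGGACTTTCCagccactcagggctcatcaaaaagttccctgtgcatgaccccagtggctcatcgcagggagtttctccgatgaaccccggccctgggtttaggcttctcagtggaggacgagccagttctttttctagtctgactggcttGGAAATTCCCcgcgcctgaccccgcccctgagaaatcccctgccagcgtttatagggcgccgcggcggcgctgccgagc
Tnfaip3: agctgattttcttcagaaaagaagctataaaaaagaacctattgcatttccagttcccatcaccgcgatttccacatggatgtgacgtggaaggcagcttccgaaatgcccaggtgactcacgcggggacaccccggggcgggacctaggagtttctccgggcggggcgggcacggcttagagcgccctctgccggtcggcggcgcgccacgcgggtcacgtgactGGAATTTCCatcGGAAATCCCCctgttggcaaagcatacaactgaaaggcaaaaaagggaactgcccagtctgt
Nfkb2: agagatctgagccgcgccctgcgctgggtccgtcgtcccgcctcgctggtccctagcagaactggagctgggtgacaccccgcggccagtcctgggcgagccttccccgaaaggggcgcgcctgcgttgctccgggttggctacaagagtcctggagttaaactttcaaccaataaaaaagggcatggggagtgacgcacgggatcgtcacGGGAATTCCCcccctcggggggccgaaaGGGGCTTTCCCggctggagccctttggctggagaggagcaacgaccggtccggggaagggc
Bcl3: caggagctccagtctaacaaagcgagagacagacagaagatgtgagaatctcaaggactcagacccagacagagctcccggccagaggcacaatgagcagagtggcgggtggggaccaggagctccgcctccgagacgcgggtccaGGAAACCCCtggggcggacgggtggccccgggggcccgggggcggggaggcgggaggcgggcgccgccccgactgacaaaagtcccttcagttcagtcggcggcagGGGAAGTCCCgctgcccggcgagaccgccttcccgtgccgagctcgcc
Nfkbie: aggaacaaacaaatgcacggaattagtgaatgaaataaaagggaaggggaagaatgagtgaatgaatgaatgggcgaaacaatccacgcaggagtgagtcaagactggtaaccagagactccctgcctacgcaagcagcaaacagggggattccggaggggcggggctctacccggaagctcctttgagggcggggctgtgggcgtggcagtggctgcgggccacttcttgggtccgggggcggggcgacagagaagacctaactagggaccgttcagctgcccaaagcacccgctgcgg

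Facts of the whole series bear on these genes in a few places. Mean intensity lay between 379 and 421 outside the tumor group and was 284 and 265 within it. Detection p-values were under 0.05 for 31.0% to 38.4% of the probes of an array. Across features, log2 values correlated at 0.970 to 0.990 between arrays of a group and at 0.857 to 0.936 between groups. Irf8, the targeted gene, read 6.86 and 6.70 (log2) in wild-type cells, 4.85 and 5.34 in KO cells and 8.82 and 8.09 in AT-3 cells. The sources do not say whether its probe falls within the deletion, so this signal checks the labels only in part. Of 15 neutrophil markers 14 were tested, and 13 or 14 of them were detected on each array. Their summed signals were 185041 to 191931 in wild-type, 246053 to 251191 in KO and 241969 to 253222 in AT-3 cells. By the calls defined below, 5 of these markers rose and 2 fell in KO cells, and 6 rose and 2 fell in AT-3 cells. Over all features, 31.9% and 34.9% were called in these comparisons. The sums therefore hide moves in both directions against wild type. Between AT-3 and KO cells 0 of these markers rose and 0 fell, against 11.5% of all features called. Whether the share of neutrophils differed between groups was not tested.

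Levels below are normalized log2 signals on the arrays numbered 1 and 2 of a group, and differences are log2 differences between group means with their standard error (SE), from limma fitted to all 6 arrays. A gene is called where its Benjamini-Hochberg adjusted p over all 12492 features is under 0.05, and n is 2 arrays per group throughout. Signals of different probes are not comparable with each other, so no level is set against that of another gene.

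The AT-3 cells differed most from wild type across the members. Of the 9 genes, 6 fell, 0 rose and 3 did not pass, while 34.9% of all features were called in that comparison, 17.6% lower and 17.3% higher. At an unadjusted p under 0.05, limma's counts were 8 lower and 0 higher. All 9 differences were negative, with a median of -1.89 against -0.01 over all features. In IRF8 KO cells 5 fell, 0 rose and 4 did not pass, against 31.9% of features called, 16.5% lower and 15.4% higher, and the median was -0.65 against -0.01. At an unadjusted p under 0.05 the counts were 5 lower and 1 higher, the latter Tnfaip3. Between AT-3 and KO cells 3 fell, 1 rose and 5 did not pass, against 11.5% called, 5.34% lower and 6.16% higher, with a median of -0.61 against -0.02. Both comparisons with wild type use the same wild-type arrays, so their values are given side by side and their overlap is not read as a result.

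**Figure D1:**
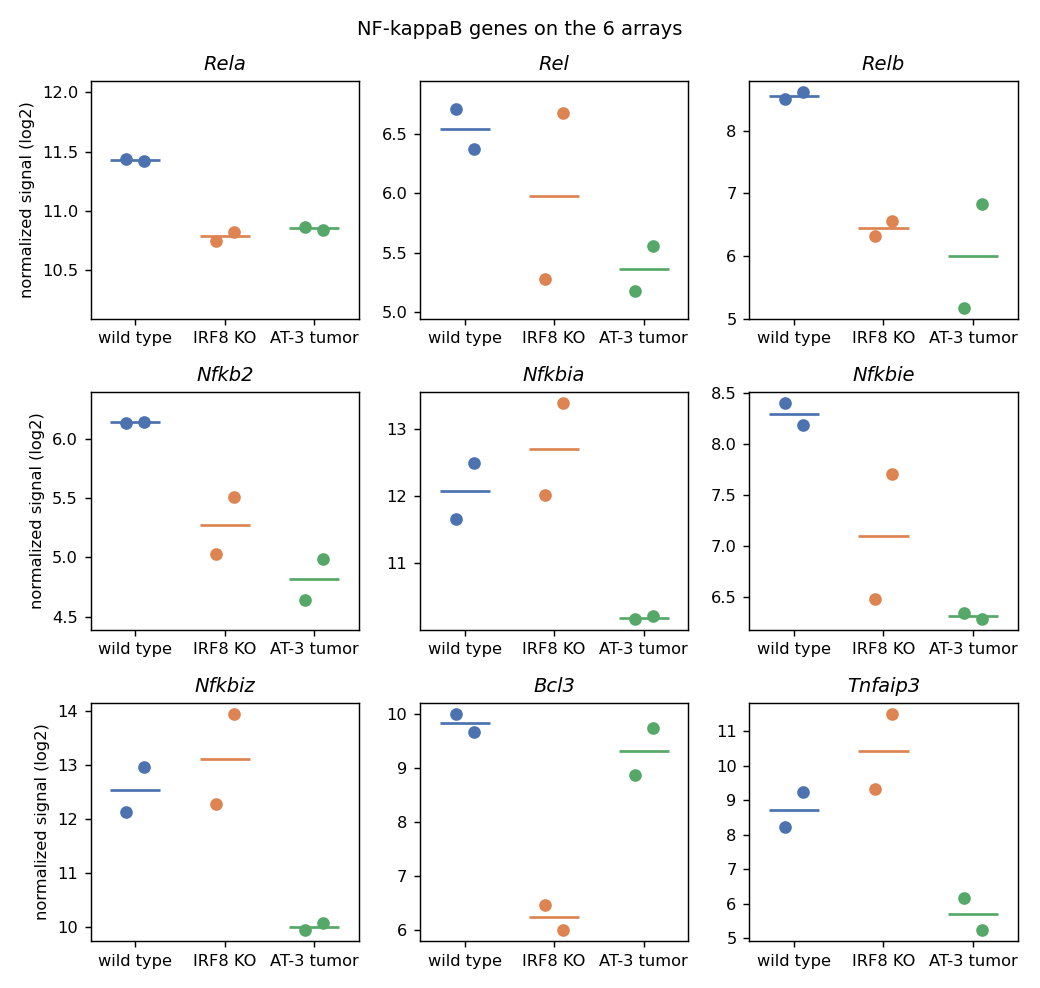
Normalized log2 signal of the 9 measured NF-kappaB genes, 1 panel per gene, with the 3 groups on the x axis; points are the 2 arrays of a group (array 1 left, array 2 right) and lines are group means, and each panel has its own y axis, which does not start at 0. Nfkbia, Nfkbiz and Tnfaip3 are lowest on both AT-3 arrays, and Bcl3 is lowest on both KO arrays.

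Among the subunits, Relb fell in both comparisons with wild type. Its signal was 8.50 and 8.62 in wild-type cells, 6.32 and 6.56 in KO cells and 5.17 and 6.82 in AT-3 cells. Every KO and AT-3 array lay below both wild-type arrays, while the AT-3 arrays lay on either side of the KO arrays. Relb fell 4.34-fold in KO cells (-2.12, SE 0.48, limma adjusted p = 0.0148) and 5.91-fold in AT-3 cells (-2.56, SE 0.48, adjusted p = 0.0072). The AT-3 value was -1.74 without AT-3 array 1 and -3.39 without AT-3 array 2, and it no longer passed without wild-type array 2 (-2.50, adjusted p = 0.0547), over adjusted p values of 0.000325 to 0.0547 in all alternatives. AT-3 and KO cells differed by -0.44 (95% interval -1.57 to 0.69, adjusted p = 0.601), a range that still holds differences of either sign.

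Nfkb2, whose product is the usual partner of RelB, read 6.13 and 6.14 in wild-type cells, 5.03 and 5.51 in KO cells and 4.64 and 4.99 in AT-3 cells. Both other groups lay below wild type. The probe was dim: on the AT-3 arrays it was not above the negative controls (detection p-values 0.235 and 0.0598). Nfkb2 fell by 0.87 in KO cells (SE 0.25, limma adjusted p = 0.0368). In AT-3 cells it fell by at least 2.14-fold (-1.32, SE 0.25, adjusted p = 0.00762). With the authors' values the KO call was lost (-0.29, adjusted p = 0.0807), and the AT-3 call held at a smaller size (-0.42, adjusted p = 0.0240). The bound sets the wild-type mean against the lowest detected signal on each AT-3 array, or the probe's own value where that is higher. Such bounds, here and below, hold only for the background correction and scaling used for the main results. Between KO and AT-3 cells the same bound was 1.17-fold and did not pass (adjusted p = 0.287), so no order of these groups is read from this probe.

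Rela, which encodes the main activating subunit of the canonical pathway, was detected on all arrays. It read 11.44 and 11.42 in wild-type cells, 10.75 and 10.82 in KO cells and 10.87 and 10.84 in AT-3 cells. Both other groups lay below wild type, with gaps within a group of at most 0.08. The difference from wild type was -0.65 for the knockout (SE 0.20, a fold of 1.56, adjusted p = 0.0446), which passed, and -0.58 in AT-3 cells (SE 0.20, adjusted p = 0.0601), which did not. The KO call was lost in 10 of 18 alternatives, with differences of -1.01 to -0.58 over all of them. The AT-3 difference passed in 11 of 18 alternatives, among them the authors' values (-0.56, adjusted p = 0.00715), medians of detected probes set equal (-1.14) and no scaling (-1.71), over adjusted p values of 0.000497 to 0.242. The difference between AT-3 and KO cells was 0.07 (95% interval -0.40 to 0.54), and it turned negative where only the medians of detected probes were set equal (-0.13) or where arrays were not scaled (-1.13).

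Rel, the gene of the subunit c-Rel, read 6.71 and 6.37 in wild-type cells, 5.28 and 6.68 in KO cells and 5.18 and 5.56 in AT-3 cells. The KO arrays lay 1.39 apart and reached into the wild-type range, while both AT-3 arrays lay below wild type. Neither difference from wild type passed (-0.56, SE 0.44, adjusted p = 0.371 in KO cells, and -1.18, SE 0.44, adjusted p = 0.0742 in AT-3 cells). The AT-3 difference passed in 4 of 17 alternatives, with differences of -1.46 to -0.44 over all of them. These were no scaling (-1.46, limma adjusted p = 0.0221), the fit to only the groups compared (adjusted p = 0.0131) and the omission of either KO array. For AT-3 against wild type, omitting a KO array repeats the fit to only the groups compared, so these are not separate alternatives. The KO value depended on the array, with -1.26 without KO array 2, where it passed (adjusted p = 0.0221), and 0.13 without KO array 1, over adjusted p values of 0.0221 to 0.777 in all alternatives.

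**Figure D2:**
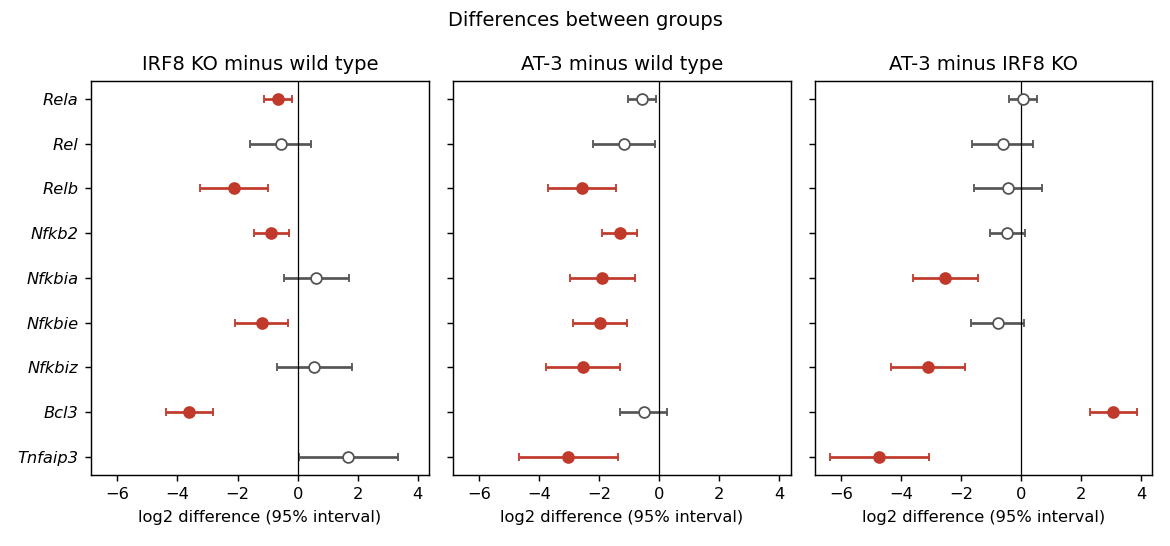
Log2 differences between groups for the 9 genes, with 95% intervals from limma; the panels are the 3 comparisons, and filled red points passed an adjusted p of 0.05 while open points did not. Bcl3 alone lies far to the left in KO against wild type and to the right in AT-3 against KO, and Tnfaip3, Nfkbiz and Nfkbia lie to the left in both comparisons of AT-3 cells.

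The inhibitors did not share 1 pattern. Nfkbia, Nfkbiz and Tnfaip3 were low in AT-3 cells and not low in KO cells. Nfkbia encodes IkappaB-alpha, which captures dimers in the nucleus and returns them to the cytoplasm. It read 11.67 and 12.49 in wild-type cells, 12.02 and 13.39 in KO cells and 10.17 and 10.21 in AT-3 cells. Both AT-3 arrays lay below every other array, and the KO arrays overlapped wild type. Nfkbia fell 3.71-fold in AT-3 cells against wild type (-1.89, SE 0.46, adjusted p = 0.0185) and 5.74-fold against KO (-2.52, SE 0.46, adjusted p = 0.0176). KO and wild type differed by 0.63 (95% interval -0.46 to 1.72, adjusted p = 0.346). Its second, dimmer probe gave the same calls, at -2.48 (SE 0.47) for AT-3 minus wild type and -2.74 (SE 0.47) for AT-3 minus KO, and was not above the negative controls on the AT-3 arrays.

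Nfkbiz encodes IkappaB-zeta, a nuclear member of the family that works as a cofactor for a second wave of NF-kappaB genes. It read 12.12 and 12.96 in wild-type cells, 12.27 and 13.94 in KO cells and 9.94 and 10.07 in AT-3 cells. The order of the groups was that of Nfkbia, with AT-3 apart and the other groups overlapping. Nfkbiz fell 5.80-fold against wild type (-2.54, SE 0.53, adjusted p = 0.0105) and 8.57-fold against KO (-3.10, SE 0.53, adjusted p = 0.0136). KO and wild type differed by 0.56 (95% interval -0.68 to 1.81, adjusted p = 0.467). Without KO array 2, Nfkbia and Nfkbiz stood at -0.0552 and -0.27 in KO against wild type.

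Tnfaip3 encodes A20, a ubiquitin-editing enzyme that shuts off signals upstream of IkappaB kinase, and it had the widest range of the members, 6.27 over the 6 arrays. It read 8.22 and 9.24 in wild-type cells, 9.33 and 11.50 in KO cells and 6.16 and 5.23 in AT-3 cells. The 3 groups did not overlap, with KO highest, though KO array 1 lay only just above wild-type array 2. Tnfaip3 fell 8.19-fold in AT-3 cells against wild type (-3.03, SE 0.70, adjusted p = 0.0152) and 26.3-fold against KO (-4.72, SE 0.70, adjusted p = 0.00826). Its probe was near the negative controls on AT-3 array 2 (detection p-value 0.0214), so the size of these folds is uncertain. Without background correction the difference from wild type was -1.74 and did not pass (adjusted p = 0.0911). The difference from KO was then -3.22 and passed (adjusted p = 0.0334). The KO difference from wild type was 1.68 (SE 0.70, 95% interval 0.04 to 3.33, adjusted p = 0.110) and did not pass. Where arrays were not scaled it was 1.89 and passed (adjusted p = 0.0445). It was 2.77 without KO array 1, where it passed (adjusted p = 0.025), and 0.60 without KO array 2, over adjusted p values of 0.025 to 0.468 in all alternatives.

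The calls in AT-3 against wild type for these 3 genes rest on few arrays and on the filter. With no filter all 3 were lost (limma adjusted p = 0.0741 for Nfkbia, 0.05001 for Nfkbiz and 0.0720 for Tnfaip3). All 3 were lost without wild-type array 2 (Nfkbia -1.48, adjusted p = 0.127, Nfkbiz -2.11, adjusted p = 0.0791, and Tnfaip3 -2.52, adjusted p = 0.103). Over all alternatives their adjusted p values ran from 0.000905 to 0.127, 0.000551 to 0.0791 and 0.00215 to 0.103, and the direction was negative in each. Without AT-3 array 1 the calls of Nfkbia and Nfkbiz were lost (-1.87, adjusted p = 0.0827, and -2.47, adjusted p = 0.0594), and without AT-3 array 2 those of Nfkbia and Tnfaip3 (-1.91, adjusted p = 0.0728, and -2.57, adjusted p = 0.0855). The calls against KO were lost for Nfkbia and Nfkbiz without either AT-3 array and for Tnfaip3 without AT-3 array 2 (-4.25, adjusted p = 0.0669). Without KO array 1 or KO array 2 the differences from KO were -3.21 or -1.84 for Nfkbia, -3.94 or -2.26 for Nfkbiz and -5.80 or -3.63 for Tnfaip3.

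Bcl3, a nuclear IkappaB protein gene whose product binds homodimers of the Nfkb1 and Nfkb2 products, went the other way round. It read 10.00 and 9.67 in wild-type cells, 6.476 and 6.003 in KO cells and 8.88 and 9.75 in AT-3 cells. Both KO arrays lay below every other array, and the AT-3 arrays overlapped wild type. Bcl3 fell 12.1-fold in KO cells (-3.60, SE 0.34, adjusted p = 0.000625) and was 8.43-fold higher in AT-3 than in KO cells (3.08, SE 0.34, adjusted p = 0.0023). Both calls held in all 18 alternatives, with differences of -3.84 to -2.46 and 1.80 to 3.51. AT-3 and wild type differed by -0.52 (95% interval -1.31 to 0.27, adjusted p = 0.269), and this value passed where medians of detected probes were set equal (-1.05) and without scaling (-1.61).

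Nfkbie, which encodes IkappaB-epsilon, a cytoplasmic inhibitor, fell in both settings, but its KO call was lost in 13 of 18 alternatives. It read 8.41 and 8.19 in wild-type cells, 6.49 and 7.71 in KO cells and 6.34 and 6.29 in AT-3 cells. Wild type lay highest and AT-3 lowest, with KO array 1 close to the AT-3 arrays and KO array 2 close to wild type. Nfkbie fell 2.29-fold in KO cells (-1.20, SE 0.38, adjusted p = 0.0488) and 3.94-fold in AT-3 cells (-1.98, SE 0.38, adjusted p = 0.00781). The KO call was lost with the authors' values (-0.75, adjusted p = 0.0510) and with averaged probes (-0.55, adjusted p = 0.206), among others. The KO value was -0.59 without KO array 1 and -1.81 without KO array 2. A second, dimmer probe of Nfkbie passed in no comparison, at 0.10 for KO minus wild type, -0.44 for AT-3 minus wild type and -0.54 for AT-3 minus KO. It was detected on wild-type array 1 and on both KO arrays. It was not above the negative controls on wild-type array 2 or on either AT-3 array, so the calls rest on the brighter probe.

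Of the 5 calls in KO against wild type, Bcl3 alone was kept when either wild-type array was left out. Without wild-type array 1 the adjusted p values of Relb, Nfkb2, Rela and Nfkbie were 0.0752, 0.164, 0.210 and 0.214. Leaving out KO array 1 kept Bcl3 and added Tnfaip3 as higher, and leaving out KO array 2 kept Bcl3, Nfkb2 and Nfkbie and added Rel as lower. With only KO and wild type in the fit, Rela (limma adjusted p = 0.0566) and Nfkbie (0.0771) were lost. Leaving out either AT-3 array repeats that fit for this comparison. In AT-3 against wild type, leaving out wild-type array 2 kept Nfkbie alone. Calls over all features also became fewer without a wild-type array, so such losses are not particular to the members.

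The arrays of the KO group lay far apart for some of the members. Array 2 minus array 1 was 1.37 for Nfkbia, 1.67 for Nfkbiz and 2.17 for Tnfaip3 in KO cells, against a median of 0.04 over all features (median absolute gap 0.31). In wild-type cells the same gaps were 0.83, 0.84 and 1.02, with a median absolute gap over all features of 0.18. In AT-3 cells they were 0.04, 0.13 and -0.93. Of the other members, Rel and Nfkbie also had wide gaps in KO cells (1.39 and 1.22). Those of Nfkb2, Relb, Rela and Bcl3 in KO cells were 0.49, 0.24, 0.08 and -0.47. The stress and immediate early genes, a list of 27 of which 23 were tested, moved with them: 20 of the 23 were higher on KO array 2 than on KO array 1 (median gap 0.89), 17 in wild-type cells (0.17) and 12 in AT-3 cells (0.04). Genes of this list are known to be inducible during tissue handling, and the part of handling in the differences between groups was not tested.

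**Figure D3:**
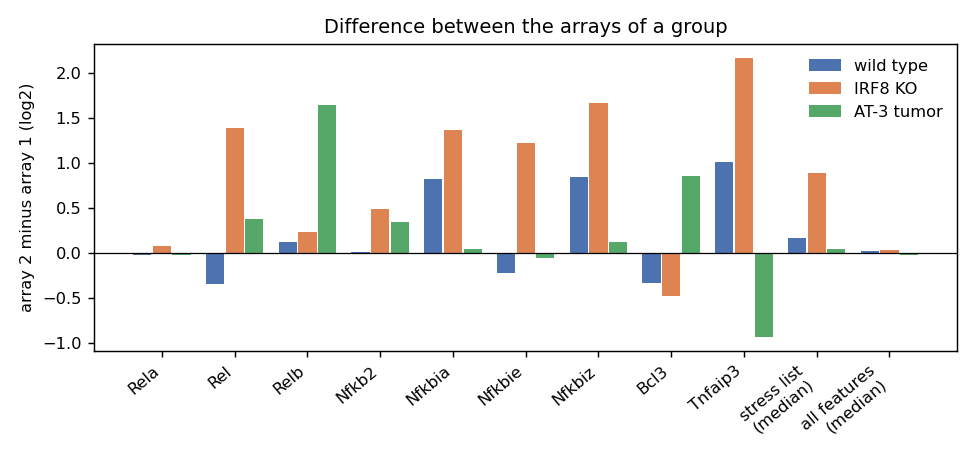
Difference between array 2 and array 1 of each group (log2 units, y axis) for the 9 genes, with the median of the 23 stress and immediate early genes and of all 12492 features at the right; bars are coloured by group. In KO cells the bars of Rel, Nfkbia, Nfkbie, Nfkbiz and Tnfaip3 are above 1, and the bar for all features is near 0.

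Between groups, the stress and immediate early genes were lower in both comparisons with wild type. Of the 23 tested, 0 rose and 19 fell in AT-3 cells (median -2.24), and 1 rose and 12 fell in KO cells (median -1.08). In AT-3 against KO 1 rose and 10 fell (median -1.13). Over all features 17.6%, 16.5% and 5.34% were called lower in these comparisons, and 17.3%, 15.4% and 6.16% higher. The medians over all features were -0.01, -0.01 and -0.02. In AT-3 cells Dusp2, a phosphatase of MAP kinases, fell by at least 37.9-fold and Egr1, an immediate early transcription factor gene, by 4.75 (SE 0.53). In KO cells Atf3, a stress-induced transcription factor gene, fell by 3.27 (SE 0.49), Ppp1r15a, whose product restores translation after stress, by 2.74 (SE 0.50), and the chaperone gene Hsp90aa1 rose by 1.04 (SE 0.26). In AT-3 against KO, Fosb, another immediate early gene, fell by 4.58 (SE 0.52), Dusp2 by at least 13.0-fold, and Klf4 rose by 2.21 (SE 0.57). The summed signal of the list was 140891 to 156608 in wild-type, 65374 to 106994 in KO and 33271 to 34617 in AT-3 cells.

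Likeness between profiles was measured as the root mean square difference, over the 6 arrays, of log2 values centred on each gene's mean. Nfkbia and Nfkbiz were each other's nearest members, at 0.303, and Nfkb2 and Rel were likewise nearest to each other, at 0.307. Bcl3 had no near member, with its closest, Rela, at 1.44. For Tnfaip3, the member with the widest range, the 3 nearest of 9265 other named genes were Fosb at 0.449, Cd69, an early activation antigen, at 0.499, and Hspa4l, a heat shock protein gene, at 0.754. Fosb read 10.8 and 11.4 in wild-type, 11.7 and 12.7 in KO and 8.35 and 6.95 in AT-3 cells, so that KO array 2 was highest and both AT-3 arrays lowest.

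Genes that NF-kappaB is known to induce were read next. Over all features, 17.6% were called lower in AT-3 cells, 16.5% in KO cells and 5.34% in AT-3 against KO. Of 40 listed targets 34 were tested, since 5 were detected on fewer than 2 arrays and Il12b had no probe under that symbol. In AT-3 cells 0 rose and 21 fell (1 and 23 at an unadjusted p under 0.05), with a median of -1.94 against -0.01 over all features. Cxcl2, a neutrophil-attracting chemokine, fell 45.6-fold (-5.51, SE 0.78). On AT-3 array 1 it read 5.34, near the lowest detected signal of that array (5.04), so its size is uncertain in both comparisons of AT-3 cells. Ccrl2, a chemerin-binding receptor, fell by 5.62 (SE 0.59), with its probe above the negative controls on 1 of the 2 AT-3 arrays, so its size is uncertain in both comparisons of AT-3 cells. In KO cells 1 rose and 17 fell, with a median of -1.23. Csf1, the macrophage growth factor, fell by 3.71 (SE 0.25) and Tnfrsf1b, a receptor for TNF, by 3.48 (SE 0.38), while Plaur, the urokinase receptor, rose by 1.03 (SE 0.31). Between AT-3 and KO cells 1 rose and 7 fell, with a median of -0.64, among them Cxcl2 (-5.96, SE 0.78) and Ccrl2 (-4.41, SE 0.59), while Tnfrsf1b was higher (1.57, SE 0.38).

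Cxcl2 was lowest on both AT-3 arrays. It read 11.1 and 12.2 in wild-type cells, 11.0 and 13.2 in KO cells and 5.34 and 6.90 in AT-3 cells. KO and wild type overlapped, and AT-3 lay apart. Csf1 read 8.78 and 8.85 in wild-type, 5.16 and 5.05 in KO and 4.96 and 5.54 in AT-3 cells, so that wild type lay above both other groups, and was detected on 1 of the 2 AT-3 arrays.

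Genes upstream of the members were read against the same shares over all features. These were 31.9% called in KO cells, 34.9% in AT-3 cells and 11.5% between AT-3 and KO cells. Of 24 listed receptor-proximal signalling genes 19 were tested, and 1 rose and 4 fell in KO cells (median -0.29), 1 rose and 7 fell in AT-3 cells (median -0.39) and 0 passed in limma between AT-3 and KO (4 lower at an unadjusted p under 0.05). Rnf31, a subunit of the linear ubiquitin ligase that relays the signal, fell by 1.74 (SE 0.38) in KO and by 1.88 (SE 0.38) in AT-3 cells. Myd88, the adaptor of Toll-like and interleukin-1 receptors, fell by 1.36 (SE 0.25) in KO cells, and Irak2, a kinase downstream of it, by 1.59 (SE 0.25) in AT-3 cells. Tab1, a partner of the kinase TAK1, rose in both (0.76, SE 0.21, and 0.72, SE 0.21).

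Of 9 genes of the IkappaB kinase complex and its activators 8 were tested, and 1 rose and 4 fell in KO cells, 1 rose and 3 fell in AT-3 cells and 0 passed in limma between AT-3 and KO (2 higher and 1 lower at an unadjusted p under 0.05). Map3k14 encodes NIK, the kinase that starts the non-canonical pathway and so acts upstream of Nfkb2 and Relb products. It read 9.88 and 9.88 in wild-type, 7.12 and 8.23 in KO and 7.86 and 8.11 in AT-3 cells, both groups below wild type and overlapping each other, and fell by 2.20 (SE 0.36) in KO and by 1.89 (SE 0.36) in AT-3 cells. Map3k8, a kinase bound to the Nfkb1 precursor, fell by 1.24 (SE 0.25) and 1.49 (SE 0.25). Ikbke, a kinase related to IkappaB kinase, rose by 1.64 (SE 0.42) and 1.75 (SE 0.42).

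Of 18 other IkappaB proteins and brakes 17 were tested, and 2 rose and 4 fell in KO cells and again in AT-3 cells, while 1 rose and 0 fell between AT-3 and KO. Tnip2, an A20-binding inhibitor gene, fell by 2.25 (SE 0.36), with its probe detected on 1 of the 2 KO arrays, and Tnfaip8l2, a brake on innate signalling, by 1.57 (SE 0.28) in KO cells. In AT-3 cells Zc3h12a, an RNase that destroys inflammatory transcripts, fell by 2.26 (SE 0.48) and Nfkbid, another nuclear IkappaB gene, by 1.95 (SE 0.25). Commd1, which limits RelA on chromatin, rose by 1.69 (SE 0.20) in KO and by 1.32 (SE 0.20) in AT-3 cells, and Tank, a TRAF-binding regulator, by 1.36 (SE 0.22) and 0.68 (SE 0.22). Tnfaip8l2 was higher in AT-3 than in KO cells (1.18, SE 0.28), which was the direction of Bcl3.

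**Figure D4:**
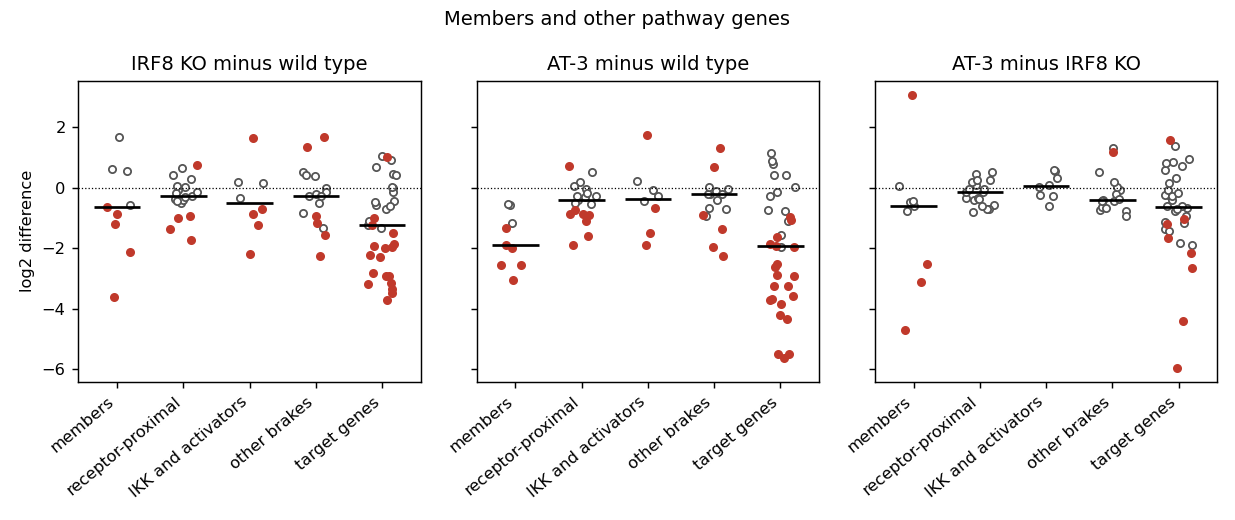
Log2 differences (y axis) of the 9 measured NF-kappaB members and of 4 lists of other pathway genes (x axis), 1 panel per comparison; each point is a gene, filled red where it passed an adjusted p of 0.05, and black lines are medians over the tested genes of a list. Target genes have medians of -1.23, -1.94 and -0.64, and the members -0.65, -1.89 and -0.61.

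Markers of other cells moved with the same groups. Over all features, 31.9% were called in KO cells, 34.9% in AT-3 cells and 11.5% between AT-3 and KO cells. Of 16 monocyte and macrophage markers 13 were tested: 0 rose and 12 fell in KO cells, 3 rose and 9 fell in AT-3 cells, and 6 rose and 1 fell in AT-3 against KO. Their summed signal was 14989 to 17220 in wild-type, 2330 to 4457 in KO and 6443 to 8853 in AT-3 cells, and C1qa was detected on no KO or AT-3 array, Fcgr1 and Ccr2 on no KO array and Mrc1 on no AT-3 array. Of 11 dendritic cell markers 6 were tested, and 3 fell and 0 rose in each comparison with wild type, with summed signals of 1724 to 2487, 545 to 885 and 245 to 388 in wild-type, KO and AT-3 cells. Of 10 cycling cell markers 6 were tested and all 6 rose in both comparisons with wild type, with summed signals of 316 to 330, 3510 to 10768 and 5242 to 5764. Of 8 erythroid markers 3 were tested, and their summed signal was 31621 to 46250 in AT-3 cells against 4368 to 5593 in wild-type and 186 to 274 in KO cells. Of 10 B cell markers 7 were tested, and 2 rose, 0 fell and 5 were not called in KO cells. In AT-3 cells 0 rose and 0 fell against wild type, and 0 rose and 2 fell against KO. B cell markers summed to 859 to 1341 in KO cells against 370 to 540 in wild-type and 270 to 351 in AT-3 cells, so the sum does not speak for each marker. Of T and NK cell markers 3 and 2 were tested, at 118 to 767 and 184 to 393 over the arrays. The part of these cells in the changes of Relb, Bcl3 and the other members was not tested, and in such bulk samples fewer cells of a type and less RNA per cell cannot be told apart.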

How the data were processed

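Biotin-labelled cRNA from 6 samples, 3 groups of 2, was hybridized to Illumina arrays, per the labels' protocols, which also state a sort purity and RNA quality limits. The submitters' processing notes list GenomeStudio without a version. The deposited table holds 1 unnormalized signal intensity per probe and array, per the file headers, with a deposited detection p-value beside each. The series matrix holds deposited log2 values with no step stated; set against the intensities they equal quantile-normalized log2 intensities without background correction, uncentred, with array medians of 6.91 or 6.92, and served as an alternative.

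The function neqc (limma 3.58.1, R 4.3.3) applied normexp background correction based on detection p-values, added 16, and gave quantile-normalized log2 signals. The filter required detection (p under 0.05) on 2 or more arrays, which 17631 probes met, and the brightest probe stood for a gene, leaving 9548 named genes and 2944 unnamed probes. Platform symbols were updated through Entrez identifiers; 34885 probes had 1 symbol, 18 several and 10378 none. limma's lmFit and eBayes fitted 1 mean per group to all 6 arrays (3 residual and 4.29 prior degrees of freedom), with Benjamini-Hochberg adjustment over all 12492 features. An exact permutation test of 2 arrays against 2 cannot go below p = 0.333, so none was run. A summed signal adds the unlogged normalized signals of a list's tested genes.

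The members and lists were chosen with earlier results of these data known. Named genes are all members, of each list up to 2 called higher and up to 2 called lower with the largest difference per comparison, Irf8, and the nearest profiles. Cxcl2, Csf1, Map3k14 and Fosb were chosen for array values after these were seen. Some names by rule are given once, with both comparisons. Alternatives were other background corrections, the authors' values, other scalings and filters, averaged or single probes, only the groups compared in the fit, a trended robust prior, an adjusted p under 0.01, omitting single arrays (normalized with all 6), and a block for the replicate number. Some alternatives repeat each other, so counts of alternatives are not counts of independent checks. The authors' values repeat the setting without background correction. Leaving out an array of the group not compared repeats the fit to only the groups compared. The main fit was tested on simulated data. Precision is limited by the number of arrays.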

Additional observations from a re-analysis of the deposited data

How the results depend on the processing

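The count of members called depended on the setting. In KO against wild type 5 became 3 without background correction, with the authors' values (the same values again), without scaling, with detection under 0.01 on all arrays, with only the groups compared in the fit and with the replicate block, 2 with no filter and 1 at an adjusted p under 0.01, and 1 to 4 when an array was left out. In AT-3 against wild type 6 became 9 without scaling, 8 with medians of detected probes set equal and with only the groups compared in the fit, 4 with no filter and with the stricter one, 3 at an adjusted p under 0.01 and 1 to 8 when an array was left out. In AT-3 against KO 4 became 9 without scaling, 2 with no filter, 2 at an adjusted p under 0.01 and 1 to 6 when an array was left out. With no filter 29453 features were tested, and with the stricter one 5 members. Calls over all features moved with these settings as well. In KO against wild type 3990 became 4642 without scaling, 3266 with no filter and 1964 at an adjusted p under 0.01. In the same order, 4360 became 5590, 3693 and 2080 in AT-3 against wild type. In AT-3 against KO 1436 became 7085, 988 and 411. The member counts are to be read beside these. Without scaling, 2 of the 3 members called in KO against wild type were lower and 1, Tnfaip3, was higher. Some values that had not passed changed sign. Where medians of detected probes were set equal, AT-3 minus KO was 0.23 for Nfkb2 and -0.13 for Rela, and without scaling it was -1.13 for Rela. When an array was left out, KO minus wild type ran from -1.26 to 0.13 for Rel, -0.0552 to 1.31 for Nfkbia and -0.27 to 1.40 for Nfkbiz, and AT-3 minus KO from -1.31 to 0.0842 for Rel and -1.27 to 0.38 for Relb. Of 474 single values under alternatives, 374 kept direction and side of the threshold, 66 no longer passed, 26 newly passed and 8 changed sign, none of them in AT-3 against wild type. The cause of these changes was not tested, and alternatives that repeat each other were counted each time. The median of all features moved to -0.22, 0.13 and 0.17 in the 3 comparisons with medians set equal, and to 0.20, -0.44 and -0.83 without scaling, so member values there stand relative to those shifts. The share of called features that were higher was 48.2%, 49.5% and 53.6%, became 37.4%, 46.2% and 72.1% with medians set equal, 64.6%, 13.1% and 4.81% without scaling. Over all features, deviations from group means correlated at 0.09, -0.06 and 0.01 between groups. This cannot show whether a few inducible genes share an effect of the replicate number. Nfkbia, Nfkbiz and Tnfaip3 were higher on array 2 in both wild-type and KO cells. The replicate block cost the KO calls of Rela (limma adjusted p = 0.0712) and Nfkbie (0.0513) and no other. With the block, the adjusted p in AT-3 against wild type was 0.00725 for Nfkbia and 0.00379 for Nfkbiz, lower than in the main fit. That of Bcl3 in KO cells was higher, at 0.000999. Dim probes such as Nfkb2, near the negative controls, limit what can be read.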
